A study of Rattus norvegicus with 16 samples.

Results

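The acid response of NRK-52E cells was read from 8 RNA sequencing libraries, the 8 of 16 in the series that carry this cell line in their label. NRK-52E is an epithelial line from normal rat kidney, which the study describes as derived from the proximal tubule. The study asked how contact through shared medium with kidney fibroblasts shapes the answer of such cells to an acid environment. The epithelial cells sat on permeable filter inserts above NRK-49F fibroblasts in 6-well plates and were kept for 24 h without added serum. They then spent 48 h in medium of pH 7.4 (libraries N1, N2, N5 and N6, the control libraries) or pH 6.0 (N3, N4, N7 and N8, the acid libraries). The labels write these media as pH7 and pH6, and the values used here are those of the study's methods. Each library holds RNA of 1 cell line, and NRK-52E cells shared their wells with fibroblasts at both pH values. No label says that libraries of a group came from separate cultures, so the p-values measure the spread between these libraries, which may be technical.

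Fragments counted on genes came to 18591104, 20612657, 19673671 and 17760185 in the control libraries and to 16844811, 21430646, 23856187 and 20967378 in the acid libraries, in the order named above, which holds for every list of values below. Levels are given as FPM, counts scaled to a common library size with TMM factors. The number of genes with at least 10 counts was 13579, 13791, 13802 and 13614 at pH 7.4 and 12938, 13436, 13426 and 13268 at pH 6.0. Every acid library thus held fewer detected genes than every control library (exact two-sided permutation p = 0.0286, the smallest that 4 against 4 libraries can give). Pairs of libraries were compared by the chi-square of their gene counts, divided by its degrees of freedom, which was at most 27.8 among the control libraries (N1 and N5). Among the acid libraries, N4 and N7 were close at 9.11, whereas N3 lay at 31.2 from N7 and 39.4 from N4. N8 stood farthest apart, at 43.7 from N3, 71.5 from N7 and 92.2 from N4. Counts of changed genes are therefore also given without N8 and with N4 and N7 as the remaining acid libraries, the latter an alternative chosen after seeing the data.

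Epithelial identity was checked on markers of 6 cell types, with the fibroblast libraries as the reference. Ocln, which encodes the tight junction protein occludin, measured 42.5, 38.6, 40.5 and 43.0 FPM at pH 7.4 and 10.3, 8.14, 10.4 and 9.83 FPM at pH 6.0, and its mean was 0 FPM in NRK-49F at pH 7.4. Keratin 7 (Krt7) stood at 34.0, 32.2, 37.7 and 42.8 FPM at pH 7.4 and 13.03, 9.40, 15.2 and 24.4 FPM at pH 6.0 against a mean of 0.46 FPM in NRK-49F at the control pH. Both genes marked the epithelial line, and both were lower in every acid library than in every control library. Col1a1, a main fibrillar collagen of fibroblasts, read 25.1, 28.2, 21.3 and 19.6 FPM at pH 7.4 and 16.6, 18.3, 20.4 and 16.9 FPM at pH 6.0, where the groups overlapped, against 6205 and 8288 FPM in the fibroblasts. Pdgfra, a growth factor receptor of fibroblasts, did not exceed 0.415 FPM in any NRK-52E library and averaged 392 FPM in NRK-49F at pH 7.4. Other markers went against the label. Epcam, Krt18, Cldn1 and Cdh16 were at or near 0 in NRK-52E, and keratin 8 (Krt8), with 462, 428, 387 and 445 FPM at pH 7.4 and 352, 292, 320.0 and 298 FPM at pH 6.0, was also abundant in NRK-49F (848 FPM at pH 7.4).

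Col3a1, another fibrillar collagen on the fibroblast list, behaved the opposite way to Col1a1, with 6318, 6273, 6193 and 6102 FPM at pH 7.4 and 3166, 2969.6, 2582 and 1804 FPM at pH 6.0 in NRK-52E against 458 and 53.9 FPM in NRK-49F. It made up most of the summed fibroblast markers of NRK-52E, which were 6442.7, 6403.2, 6303.7 and 6200.3 FPM at pH 7.4 and 3211.9, 3014.5, 2623.6 and 1844.8 FPM at pH 6.0. In NRK-49F the same markers summed to 6625.6 to 7652.2 FPM at pH 7.4 and to 7759.6 to 9413.6 FPM at pH 6.0. Pdgfrb and Postn were also expressed in NRK-52E at pH 7.4, with means of 46.4 and 45.0 FPM against 87.2 and 119.5 FPM in NRK-49F. Of the 9 fibroblast markers 5 were tested in NRK-52E and 4 fell, beside 28.5% lower and 28.2% higher over all genes tested, and Thy1 was at 0 in all 8 libraries. The summed epithelial markers, with Tjp1 the most abundant over the 8 libraries and Krt8 at pH 7.4, were 882.5, 900.7, 865.1 and 886.6 FPM at pH 7.4 and 919.6, 995.5, 973.9 and 797.1 FPM at pH 6.0, so the groups overlapped while 5 of the 6 tested members fell and Tjp1 rose (0.62, and 0.41 and not called with library totals). In NRK-49F the same markers summed to 927.4 to 1061.2 FPM at pH 7.4 and to 316.2 to 352.5 FPM at pH 6.0. At pH 7.4 every fibroblast library thus lay above every NRK-52E library, and the sum did not mark the epithelial line. Proximal tubule markers were scarce in NRK-52E. Slc34a1, Slc5a12, Hnf4a and Cdh6 had no count in any NRK-52E library, and the list summed to 46.1, 42.4, 28.3 and 35.7 FPM in the control and 29.5, 32.6, 25.2 and 35.6 FPM in the acid libraries, most of it Aqp1 (-0.40, not called, though called lower with library totals and within number 21). In NRK-49F this list summed to 118.7 to 157.4 FPM at pH 7.4 and to 356.6 to 546.0 FPM at pH 6.0. Both ranges lay above every NRK-52E library and were led by Ggt1, with means of 112 and 413 FPM. The proximal tubule list thus did not mark NRK-52E. Slc22a6 was at 0 in the control libraries and at 2.26, 2.16, 1.02 and 0.42 FPM in the acid libraries, whereas Slc5a2 fell (-3.44, not called within number 21 or 22), and Lrp2, too scarce to test, had means of 0.63 and 0.01 FPM. Slc22a8 was likewise at 0 at pH 7.4 and at 0.49, 0.81, 0.2 and 0.05 FPM at pH 6.0. Slc22a6 and Slc22a8 did not pass the filter for testing. Distal nephron markers summed to 1.8, 1.3, 1.8 and 1.9 FPM and, in the acid libraries, to 0.2, 0.4, 0.2 and 0.3 FPM, with Calb1 the most abundant and Umod at 0. Endothelial markers summed to 35.9, 45.1, 44.1 and 42.8 and 6.8, 9.1, 7.6 and 8.5 FPM, nearly all of it the receptor Tek, which fell, with Kdr and Emcn at 0. Immune markers summed to 2.9, 2.0, 2.4 and 1.7 and 2.0, 2.9, 2.3 and 2.7 FPM, led by Cd68, with Ptprc and Adgre1 at 0. The part of these shifts in the results was not tested, and fewer cells of a type and less RNA per cell cannot be told apart in bulk RNA.

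The proximal tubule reclaims filtered bicarbonate, secretes protons and makes ammonium from glutamine, so its cells sit at the center of the kidney's answer to an acid load. Low pH outside the cell can lower pH inside it, which affects many enzymes and transporters. Cells under such stress switch on general programs, among them the integrated stress response, which reduces protein synthesis while sparing Atf4, the unfolded protein response of the endoplasmic reticulum, the antioxidant response under Nrf2 and the p53 program that halts the cell cycle.

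A gene counted as differentially expressed (DEG) where edgeR and DESeq2 both gave a false discovery rate below 0.01 with the same sign. DEGs with an at least 8-fold change numbered 637, 220 higher and 417 lower at pH 6.0. A stricter test against a 2-fold change called 906 rises and 1387 falls, 6.60% and 10.1% of the 13735 genes tested. Falls were more frequent among scarce genes, with 139 DEGs higher and 322 lower under 1 FPM, and rises among abundant ones, with 1038 higher and 425 lower over 100 FPM. The libraries of the 2 pH values did not overlap for 8646 genes (62.9%), beside the 56.7% that were DEGs. Without N8, 8914 genes were DEGs and 1107 rises and 1788 falls passed the 2-fold test, and with N4 and N7 as the remaining acid libraries these numbers were 8654, 1102 and 1745. N8 was the lowest of the 4 acid libraries for 497 of the 906 rises (54.9%) and the highest for 754 of the 1387 falls (54.4%), so that for these genes it lay nearest to the control libraries.

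The count of changed genes also depended on scaling and on the number of libraries. Scaling by library totals in place of TMM shifted the median log2 change of all genes to -0.21 and gave 2900 DEGs higher and 4815 lower, 655 rises and 1772 falls. Every change below is relative to TMM scaling. The counts carry a second number beside the library name, 21 for N1 to N4 and 22 for N5 to N8, which the titles lack and whose meaning is not given. With this number as a covariate there were 7714 DEGs, 869 rises and 1435 falls. Fits within a number use 4 of the 8 libraries, and counts smaller than with all 8 cannot be told apart from the loss of libraries. Both numbers have equally many libraries, and why number 22 gave fewer DEGs than number 21 was not tested. By chi-square the acid libraries of number 22, N7 and N8, lay at 71.5 and those of number 21, N3 and N4, at 39.4. Within number 21, 613 rises and 971 falls passed the 2-fold test, and 4989 of its 5244 DEGs were DEGs with all 8 libraries. Within number 22 there were 231 rises and 279 falls, and 2809 of 2820 DEGs were shared in this way. Of 302 named genes tested, 47 lost the DEG call within number 21 and 104 within number 22, with the direction kept. Among the genes given library by library these were Cldn6, Cxcl10, Fgf2, Inhba, Krt7, Krt8, Lcn2, Mt1, Nt5e, Slc16a3, Slc7a8 and Tk1 in at least 1 of the numbers.

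Among genes with at least 10 FPM at either pH, the largest rises took genes from near silence to clear expression. Fitm1, a protein of the endoplasmic reticulum that takes part in forming lipid droplets, had 0, 0, 0.0415 and 0 FPM at pH 7.4 and 14.8, 12.99, 14.7 and 10.1 FPM at pH 6.0. Its fitted log2 change of 9.60 ± 0.42 (SE, adjusted p = 6.7e-08) depends on the prior count, since the control libraries held a single fragment among them. Gdf15, a secreted stress cytokine, stood at 0.281, 0.0819, 0 and 0 FPM at pH 7.4 and 38.8, 21.2, 24.6 and 18.9 FPM at pH 6.0, a log2 change of 8.09 ± 0.54 (SE, adjusted p = 5.1e-07). N3 was the highest acid library for both genes and N8 the lowest, and even N8 lay 67.2-fold above the highest control library for Gdf15. Ifi27l2b, of an interferon-inducible gene family, had 1.64, 1.72, 0.953 and 0.857 FPM at pH 7.4 and 168, 119, 138 and 152 FPM at pH 6.0, a log2 change of 6.78 ± 0.23 (SE, adjusted p = 1.9e-08). Cdkn1a, the p21 inhibitor of cyclin-dependent kinases, was already present at pH 7.4 and measured 36.5, 27.5, 27.1 and 25.2 FPM at pH 7.4 and 1699.5, 1431, 1578 and 937 FPM at pH 6.0, a log2 change of 5.58 ± 0.21 (SE, adjusted p = 3.2e-08). The acid libraries of Cdkn1a spread from 937 FPM in N8 to 1699.5 FPM in N3, all above the control libraries.

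Chrne, the epsilon subunit of the acetylcholine receptor of muscle, measured 1.69, 1.97, 2.69 and 1.81 FPM at pH 7.4 and 66.0, 60.9, 67.5 and 74.1 FPM at pH 6.0, a log2 change of 5.01 ± 0.17 (SE, adjusted p = 1.9e-08). The acid libraries were close together for Chrne, with N8 the highest. Col2a1, the main collagen of cartilage, rose by 8.03 ± 0.51 (log2, SE), and Hapln3, a linker protein of the matrix, by 5.55 ± 0.34. Desmin (Des), the intermediate filament of muscle, held 1.78, 0.656, 0.8291 and 0.666 FPM at pH 7.4 and 31.9, 27.2, 29.0 and 36.3 FPM at pH 6.0, a log2 change of 4.97 ± 0.29 (SE, adjusted p = 2.5e-07). N1 was the highest control library for Des, and the lowest acid library, N4, lay 15.3-fold above it. The muscle enzymes of the purine nucleotide cycle Ampd1 and Adssl1 rose by 5.04 ± 0.29 and 5.04 ± 0.27. Svop, Trim10 and Ptprv, also among the 10 largest rises, had log2 changes of 5.41 ± 0.41, 5.25 ± 0.27 and 5.05 ± 0.29, and their groups did not overlap. Ampd1, Chrne and Des followed at ranks 11, 12 and 13.

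**Figure D1:**
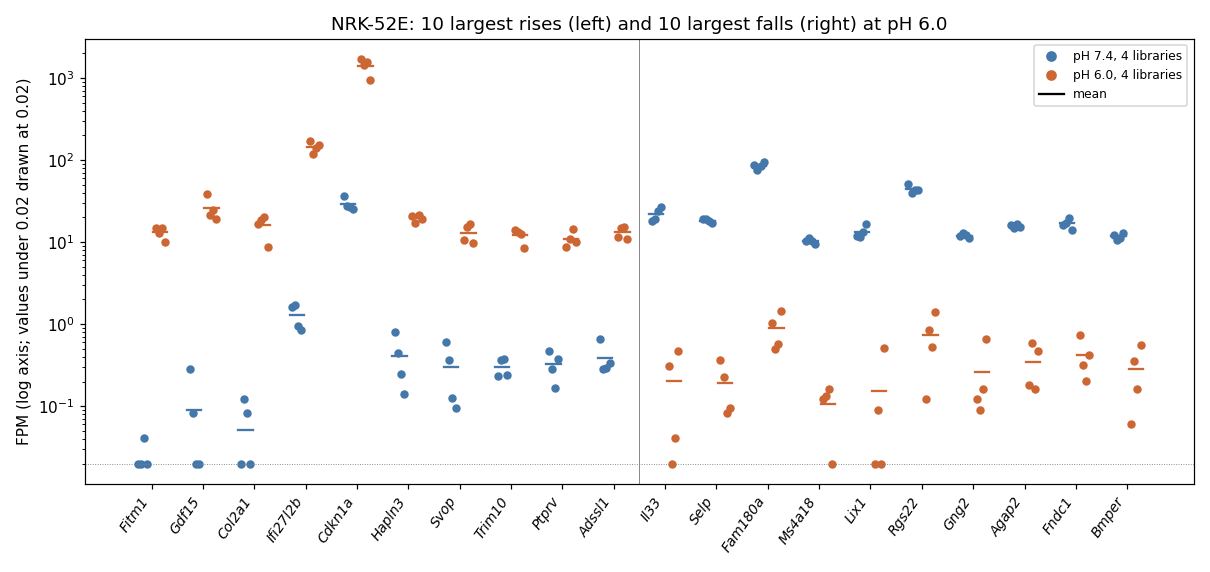
FPM in each library (log axis, values under 0.02 drawn at 0.02) for the 10 largest rises and 10 largest falls at pH 6.0, with blue points for the 4 control libraries, orange points for the 4 acid libraries and bars for their means. The 2 groups lie apart for every gene shown, from Fitm1, whose acid libraries span 10.1 to 14.8 FPM, to Bmper.

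By the same rule the largest falls were led by Il33, an alarm cytokine kept in the nucleus, with 18.3, 19.2, 24.0 and 26.8 FPM at pH 7.4 and 0.306, 0, 0.041 and 0.47 FPM at pH 6.0, a log2 change of -6.82 ± 0.50 (SE, adjusted p = 9.4e-07). Selp, the adhesion receptor P-selectin, had 19.0, 19.2, 17.9 and 16.9 FPM at pH 7.4 and 0.367, 0.225, 0.082 and 0.094 FPM at pH 6.0, a log2 change of -6.64 ± 0.30 (SE, adjusted p = 7.0e-08). No fragment of Il33 was counted in N4, and for both genes every acid library was below 0.5 FPM. Fam180a measured 86.7, 76.4, 84.9 and 94.5 FPM at pH 7.4 and 1.04, 0.494, 0.574 and 1.46 FPM at pH 6.0, a log2 change of -6.62 ± 0.26 (SE, adjusted p = 4.3e-08). Igfbp3, which binds insulin-like growth factors in the extracellular space, had 39.4, 40.1, 30.5 and 27.0 FPM at pH 7.4 and 0.428, 0.989, 0.656 and 1.55 FPM at pH 6.0, a log2 change of -5.23 ± 0.31 (SE, adjusted p = 2.8e-07). Ackr4, a scavenging receptor for chemokines, stood at 44.5, 47.1, 45.1 and 49.98 FPM at pH 7.4 and 1.04, 1.26, 1.11 and 2.73 FPM at pH 6.0, a log2 change of -4.93 ± 0.27 (SE, adjusted p = 2.1e-07). N8 was the highest acid library for Fam180a, Igfbp3 and Ackr4, and the control libraries were at least 16.3-fold above it for Ackr4. Further large falls were those of the signalling genes Gng2 (-5.51 ± 0.41) and Rgs22 (-5.89 ± 0.37) and of Bmper (-5.31 ± 0.36), an extracellular regulator of bone morphogenetic proteins. Omd, a small proteoglycan, changed by -5.09 ± 0.45 and Fndc1 by -5.40 ± 0.30.

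The 6 largest rises and 6 largest falls were compared with the fibroblasts by the interaction of cell line and pH, which was called for 37.0% of the 14679 genes tested in all 16 libraries. The difference was called for 5 of the 12. These genes were chosen by the size of their change in NRK-52E, which favors a difference. Neither the count nor the p-values below are therefore a result about them. Cdkn1a had a log2 change of 0.40 in NRK-49F, and the difference between the lines was 5.17 ± 0.24 (SE, adjusted p = 6.3e-11). For Ifi27l2b the fibroblast change was 1.73 and the difference 5.04 ± 0.35 (SE, adjusted p = 6.3e-09). Hapln3 and Fitm1 differed by 3.02 ± 0.40 (SE, adjusted p = 8.5e-06) and by 7.09 ± 1.39 (SE, adjusted p = 3.8e-04), and Il33, at -1.45 in NRK-49F, by -5.39 ± 0.39 (SE, adjusted p = 1.0e-08). In contrast, Gdf15 had a log2 change of 6.5 in the fibroblasts and Fam180a -5.51, and the difference was not called for either (1.56 ± 1.06 (SE, adjusted p = 0.232) and -1.12 ± 0.43 (SE, adjusted p = 0.0384)). Col2a1, Ms4a18, Lix1 and Rgs22 were not called to differ, with standard errors of 2.90 to 4.45, and Selp was too scarce in NRK-49F to compare.

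Some genes passed between silence and expression. With at least 10 counts in each library of a pH and at most 1 in each of the other, 22 genes were on at pH 6.0 and 43 were off. Glis1, a zinc finger transcription factor, had no count in any control library and 36, 43, 48 and 46 counts in the acid libraries, at least 15.6-fold higher against a floor of 3 counts per library. The phosphatase gene Ptpn22 (at least 12.3-fold), Tekt3 (18.5-fold) and the olfactory receptor genes Olr202 (7.40-fold) and Olr287 (8.14-fold) were likewise without a count at pH 7.4. In the other direction, Il18r1, a receptor chain for interleukin 18, held 32, 47, 48 and 47 counts at pH 7.4 and 0 in each acid library, at least 13.1-fold lower. The transcription factor Maf and the receptor Lpar1 also had no count at pH 6.0, and the matrix glycoprotein gene Tnr went from 185, 245, 216 and 214 counts to 0, 0, 1 and 0. Pigz and Pigz.1, near-identical copies on chromosome 11, had almost the same counts in every library, so that which copy was off is uncertain. The angiotensin receptor Agtr1a, the channel Trpc6 and Slc12a3, a salt transporter of the distal tubule, were off by the same rule.

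The microRNA gene Mir34a was on, with 1, 0, 1 and 1 counts at pH 7.4 and 20, 35, 42 and 13 counts at pH 6.0. Its locus is a known target of p53, which is why its products are shown. These are fragments of poly(A) RNA over the gene, and they do not measure the mature forms. In RefSeq GRCr8 the 5p form lies at chr5:165815971-165815992 and the 3p form at chr5:165816015-165816036, both on the plus strand, with the seed (bases 2 to 8) in capitals:
rno-miR-34a-5p: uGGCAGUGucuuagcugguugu
rno-miR-34a-3p: aAUCAGCAaguauacugcccua

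Genes that sense and move acid equivalents were examined first. Of 5 proton sensors tested, 0 were higher and 1, the acid-sensing channel Asic1, fell, and Asic3 (2.13), Trpv1 (1.21), Asic4 (0.46) and Pacc1 (0.19) were not called, with a list median of 0.46 that was 0.26 with library totals and 0.27 with 1 library left out. Every list below is to be read beside 28.2% higher, 28.5% lower and a median of 0.00 over all genes tested. A share near these is not a result about the list. Over all genes the direction varied with level. At 1 to 10 FPM 583 genes were higher and 1290 lower of 3395, and over 100 FPM 1038 and 425 of 2196. The lists were not matched for level. They were also chosen with earlier results of these data known, so a share far from the background is a description and not a test. Proton, bicarbonate and lactate transporters numbered 18, with 2 higher, 7 lower and 9 not called and a median of -0.40 (-0.61 with library totals). Slc9a9, a sodium/proton exchanger of endosomes, measured 4.17, 4.34, 4.44 and 4.09 FPM at pH 7.4 and 0.428, 0.629, 0.451 and 0.564 FPM at pH 6.0, a log2 change of -3.04 ± 0.22 (SE, adjusted p = 1.0e-06). Slc16a3, which exports lactate with a proton, held 2.20, 1.97, 1.95 and 2.05 FPM at pH 7.4 and 0.55, 0.494, 0.574 and 0.893 FPM at pH 6.0, a log2 change of -1.71 ± 0.27 (SE, adjusted p = 2.0e-04). Slc4a11, of the bicarbonate transporter family, moved the other way with 3.05, 3.44, 3.07 and 2.95 FPM at pH 7.4 and 19.3, 21.3, 15.7 and 15.1 FPM at pH 6.0, a log2 change of 2.49 ± 0.17 (SE, adjusted p = 5.1e-07). None of these 3 groups overlapped, and the narrowest gap was that of Slc16a3, where N8 was the highest acid library. Slc4a3, a chloride/bicarbonate exchanger, also fell (-2.42).

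Ammonia and glutamine metabolism held 15 tested genes, 5 higher, 6 lower and 4 not called, or 33.3% higher and 40% lower beside 28.2% and 28.5% of all genes tested. The median of 0.03 became -0.18 with library totals, -0.02 within number 21, 0.17 within number 22, -0.03 without N8, -0.12 with N4 and N7 and -0.04 or 0.17 with 1 library left out. Glul, which uses up ammonia to make glutamine, stood at 405, 398, 377 and 387 FPM at pH 7.4 and 70.1, 73.0, 68.2 and 95.2 FPM at pH 6.0, a log2 change of -2.37 ± 0.12 (SE, adjusted p = 1.3e-07). Asns, which uses glutamine to make asparagine, had 12.4, 8.93, 8.04 and 8.38 FPM at pH 7.4 and 86.7, 102, 88.7 and 78.3 FPM at pH 6.0, a log2 change of 3.22 ± 0.15 (SE, adjusted p = 7.0e-08). Glul was thus lower and Asns higher in each acid library, and the nearest libraries were 3.96-fold and 6.31-fold apart. Slc7a8, an amino acid exchanger of the basolateral membrane, read 5.11, 5.04, 5.64 and 5.14 FPM at pH 7.4 and 0.122, 0.045, 0.041 and 0.799 FPM at pH 6.0, a log2 change of -4.37 ± 0.59 (SE, adjusted p = 7.1e-05). N3, N4 and N7 were near 0 for Slc7a8 while N8 kept a trace. The glutamine carrier Slc1a5 and the aminotransferase Got1 rose (1.81 and 1.03), and the mitochondrial carrier Slc25a11 fell (-1.15).

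Acid compartments inside the cell were covered by 3 lists. Among 20 genes of the vacuolar proton pump 7 rose and 2 fell, or 35% higher and 10% lower beside 28.2% and 28.5% of all genes tested. The median of 0.22 became 0.01 with library totals, 0.09 within number 21, 0.13 without N8 and 0.13 with N4 and N7. Subunit D, Atp6v1d, measured 98.7, 81.0, 84.9 and 92.7 FPM at pH 7.4 and 374, 330.4, 411 and 460.0 FPM at pH 6.0, a log2 change of 2.12 ± 0.12 (SE, adjusted p = 2.3e-07). N8 was the highest library here, and Atp6v1b1, an isoform of acid-secreting cells, fell (-2.12). Lysosomal enzymes and membrane proteins showed the reverse balance, with 8 higher, 20 lower and 12 not called among 40 and a median of -0.33 (-0.54 with library totals). Cathepsin K (Ctsk), a protease that digests collagen, had 1.55, 2.05, 1.04 and 1.05 FPM at pH 7.4 and 60.2, 46.6, 49.3 and 26.3 FPM at pH 6.0, a log2 change of 4.97 ± 0.31 (SE, adjusted p = 3.4e-07). Every acid library of Ctsk was above every control library, and the acid libraries ranged from 26.3 FPM in N8 to 60.2 FPM in N3. Cathepsin S (Ctss) rose as well (4.64), and the acid phosphatase Acp2 and arylsulfatase A (Arsa) fell (-2.60 and -2.02). Autophagy machinery counted 16 higher, 1 lower and 10 not called of 27, median 0.57 (0.35 with library totals). The cargo receptor Sqstm1 stood at 408, 409.5, 378 and 399 FPM at pH 7.4 and 1713, 1286, 1351 and 1035 FPM at pH 6.0, a log2 change of 1.74 ± 0.14 (SE, adjusted p = 1.8e-06), with N3 the highest and N8 the lowest acid library. Wipi1 and Atg12 rose (1.54 and 1.34).

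Genes of the integrated stress response were mostly higher, with 25 higher, 0 lower and 5 not called among 30 tested genes, 22 of them past the 2-fold test, and a median of 1.86. Trib3, a pseudokinase induced by Atf4, measured 7.45, 5.90, 4.81 and 5.14 FPM at pH 7.4 and 224, 173, 151 and 115 FPM at pH 6.0, a log2 change of 4.81 ± 0.23 (SE, adjusted p = 7.7e-08). N3 was the highest acid library and N8 the lowest, and N8 still lay 15.46-fold above the highest control library. Atf3, a stress-induced transcription factor, rose by 4.66. ER chaperones and unfolded protein response had 24 higher, 2 lower and 6 not called of 32, median 0.94. Hspa5 (BiP), the main chaperone of the endoplasmic reticulum, stood at 873, 828, 723 and 774 FPM at pH 7.4 and 4568, 4027, 4196 and 2889 FPM at pH 6.0, a log2 change of 2.27 ± 0.14 (SE, adjusted p = 3.9e-07). Manf and Dnajb9, both secretory pathway factors, rose (1.96 and 1.67), and Edem2 and Pdia4 fell (-0.86 and -0.36). Heat shock proteins showed 18 higher, 1 lower and 6 not called of 25, median 0.69. The small heat shock protein Hspb8 held 9.70, 7.91, 7.59 and 6.19 FPM at pH 7.4 and 75.8, 65.5, 64.4 and 48.5 FPM at pH 6.0, a log2 change of 3.0 ± 0.17 (SE, adjusted p = 2.3e-07). Each acid library of Hspa5 and Hspb8 was above each control library, and Hspa1b rose while Hspa2 fell (3.09 and -2.20).

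Aminoacyl-tRNA synthetases, which load amino acids onto tRNA, had 15 higher, 0 lower and 5 not called of 20 (median 1.20). The glycine enzyme Gars measured 191, 174, 165 and 172 FPM at pH 7.4 and 1185, 1014, 977 and 722 FPM at pH 6.0, a log2 change of 2.45 ± 0.14 (SE, adjusted p = 2.3e-07), and N8 was again the lowest acid library. Amino acid transporters had 7 higher, 7 lower and 9 not called of 23, near the shares over all genes tested (28.2% higher and 28.5% lower), and all 7 that rose passed the 2-fold test. Their median of -0.01 became -0.21 with library totals, 0.13 within number 21, -0.11 within number 22, 0.11 without N8, 0.09 with N4 and N7 and -0.09 with 1 library left out. Slc3a2, the heavy chain shared by several exchangers, had 130.2, 119, 111 and 117 FPM at pH 7.4 and 1920.1, 1521, 1549 and 977 FPM at pH 6.0, a log2 change of 3.63 ± 0.19 (SE, adjusted p = 1.3e-07). It was higher in each acid library, whereas Slc3a1 and Slc7a9, which together form the cystine transporter of the brush border, fell (-1.84 and -2.20). The neutral amino acid carrier Slc1a4 rose by 3.39.

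Promoter windows of 300 bases were scanned for the response element of Atf4 and Chop (CARE, TGATGNAA on either strand), since the stress genes moved together. Windows were matched for 9718 of 13735 tested genes, 70.8%, and because this is under 80% any comparison of rises, falls and all tested genes by motif is void. Of the integrated stress response list, 27 genes had a window and 6 held the motif (22.2%), against 3.98% of all 33469 windows. Here and for the motifs below, all windows include those of genes not tested, so these shares are no matched background. The holders were Chac1, Fgf21, Ppp1r15b, Pycr1 and Trib3, which rose, and Nupr1, which was not called (0.58). Of the whole list, 25 of 30 tested genes rose. Both windows printed here come from RefSeq GRCr8, Trib3 at chr3:161275484-161275783, minus strand, and Pycr1, a proline enzyme that rose by 2.76, at chr10:106420763-106421062, minus strand, with the match in capitals. A match is a description of letters and not of binding:
Trib3: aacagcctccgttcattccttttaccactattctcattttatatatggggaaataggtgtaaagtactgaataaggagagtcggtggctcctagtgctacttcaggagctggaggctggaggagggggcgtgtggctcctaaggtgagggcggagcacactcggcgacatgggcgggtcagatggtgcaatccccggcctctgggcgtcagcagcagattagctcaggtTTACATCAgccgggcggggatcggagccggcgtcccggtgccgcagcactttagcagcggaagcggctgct
Pycr1: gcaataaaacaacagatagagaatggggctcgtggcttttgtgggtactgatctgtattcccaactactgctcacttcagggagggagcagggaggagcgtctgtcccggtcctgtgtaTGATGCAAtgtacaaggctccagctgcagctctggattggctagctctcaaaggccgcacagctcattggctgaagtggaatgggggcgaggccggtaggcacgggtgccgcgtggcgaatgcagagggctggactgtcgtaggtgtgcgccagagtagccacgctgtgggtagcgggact

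Nrf2 targets had 22 higher, 4 lower and 7 not called of 33, 16 of them past the 2-fold test, with a median of 1.33. The gene of Nrf2 itself, Nfe2l2, stood at 156, 144, 139 and 142 FPM at pH 7.4 and 328, 268, 283 and 230.3 FPM at pH 6.0, without overlap. Gclm, the regulatory subunit of the enzyme that limits glutathione synthesis, measured 23.7, 24.0, 23.1 and 26.4 FPM at pH 7.4 and 230.2, 189.7, 199.9 and 168 FPM at pH 6.0, a log2 change of 3.0 ± 0.11 (SE, adjusted p = 3.1e-08). Aldh3a1, an aldehyde dehydrogenase on the same list, went the other way, with 43.0, 43.3, 33.6 and 40.4 FPM at pH 7.4 and 2.14, 1.17, 1.31 and 1.79 FPM at pH 6.0, a log2 change of -4.68 ± 0.20 (SE, adjusted p = 6.7e-08). The fall of Aldh3a1 left the nearest libraries of the 2 groups 15.7-fold apart, and Akr7a3 was among the rises (3.30). Nrf2 partners and repressors had 8 higher, 1 lower and 8 not called of 17 (median 0.43, but 0.23 with library totals). The small Maf protein Maff held 69.9, 62.5, 57.2 and 66.3 FPM at pH 7.4 and 448, 404, 397 and 260.2 FPM at pH 6.0, a log2 change of 2.54 ± 0.15 (SE, adjusted p = 3.2e-07), higher in all acid libraries. Dpp3, which binds Keap1, fell (-1.22).

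The antioxidant response element, ARE, was searched as TGACNNNGC on either strand. It was held by 9 of 27 Nrf2 targets with a window (33.3%) and by 12.1% of all windows. It was not particular to this list, since 11 of 27 windows of the integrated stress response held it too (40.7%). Of all 33 Nrf2 targets tested, 22 rose and 4 fell. The Nrf2 targets with a match were Ephx1, Gclm, Gsta1, Gstp1, Me1, Nfe2l2 and Txnrd1, which rose, Ugdh, which fell, and Prdx1, which was not called (0.13). The windows of Ephx1 (RefSeq GRCr8, chr13:95263068-95263367, minus strand) and Gclm (chr2:213031885-213032184, plus strand) are shown because their genes rose most among these 9, with the ARE in capitals. In Ephx1 it overlaps TGANTCA, the motif of AP-1:
Ephx1: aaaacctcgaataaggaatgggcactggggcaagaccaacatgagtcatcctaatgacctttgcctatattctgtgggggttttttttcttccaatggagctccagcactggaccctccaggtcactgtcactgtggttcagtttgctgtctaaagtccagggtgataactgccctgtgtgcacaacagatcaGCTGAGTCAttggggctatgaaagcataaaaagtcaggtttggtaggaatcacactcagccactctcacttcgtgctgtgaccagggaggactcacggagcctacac
Gclm: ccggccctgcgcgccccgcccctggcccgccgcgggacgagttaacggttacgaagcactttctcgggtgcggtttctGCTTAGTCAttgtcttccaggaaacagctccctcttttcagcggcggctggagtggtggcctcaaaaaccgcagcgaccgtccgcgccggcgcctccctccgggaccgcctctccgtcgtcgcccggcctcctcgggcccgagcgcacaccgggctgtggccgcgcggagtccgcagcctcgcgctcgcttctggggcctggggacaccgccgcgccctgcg

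Glutathione and thioredoxin systems had 19 higher, 4 lower and 9 not called of 32 (median 0.84). Besides Gclm, Sesn2 and Chac1, which degrades glutathione, rose (2.89 and 2.66), and Glrx and the mitochondrial Txnrd2 fell (-1.86 and -1.46). Metallothioneins and zinc carriers had 3 higher, 1 lower and 7 not called of 11, or 27.3% higher and 9.09% lower beside 28.2% and 28.5% of all genes tested. The median of 0.21 became 0.00 with library totals and 0.10 within number 22. Metallothionein 1 (Mt1) held 3.98, 1.97, 4.06 and 4.14 FPM at pH 7.4 and 7.28, 5.53, 6.23 and 9.21 FPM at pH 6.0, a log2 change of 0.98 ± 0.27 (SE, adjusted p = 0.00723). The groups came within 1.34-fold of each other, and the call held without N4 and was lost without any other single library, for example at 0.82 without N8 and 0.78 without N2, and under library totals (0.77). The zinc exporter Slc30a2 had the list's only fall (-2.84).

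Iron and heme genes had 6 higher, 7 lower and 5 not called of 18, beside 28.2% higher and 28.5% lower over all genes tested. Their median of 0.01 became -0.20 with library totals, -0.12 within number 22 and -0.02 with N4 and N7, and reached -0.06 with 1 library left out. Tfrc, the transferrin receptor that brings iron in, measured 137, 138, 141 and 132 FPM at pH 7.4 and 22.8, 22.03, 19.0 and 19.5 FPM at pH 6.0, a log2 change of -2.74 ± 0.09 (SE, adjusted p = 2.1e-08). Steap3, which reduces iron in endosomes, held 8.81, 9.05, 9.24 and 9.42 FPM at pH 7.4 and 53.1, 52.8, 49.7 and 31.1 FPM at pH 6.0, a log2 change of 2.33 ± 0.17 (SE, adjusted p = 8.3e-07). Tfrc fell to nearly the same level in each acid library, while Steap3 rose less in N8 than in N3, N4 and N7. The biliverdin reductase Blvrb rose (2.33), and Hfe, a regulator of iron uptake, fell (-2.18).

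Glycolysis and lactate production had 7 higher, 7 lower and 11 not called of 25, near the 28.2% and 28.5% of all genes tested. The median of -0.15 became -0.36 with library totals and -0.31 or 0.00 with 1 library left out. Hexokinase 2 (Hk2), the entry enzyme, stood at 23.9, 23.1, 26.3 and 22.7 FPM at pH 7.4 and 143, 151, 131 and 78.3 FPM at pH 6.0, a log2 change of 2.37 ± 0.18 (SE, adjusted p = 1.2e-06). N8 was the lowest acid library for Hk2, and all 4 lay above the control libraries. The phosphofructokinase genes Pfkl and Pfkm fell (-1.75 and -1.55), and of the kinases that inhibit pyruvate dehydrogenase Pdk4 rose and Pdk2 fell (2.07 and -1.80). The pentose phosphate pathway and NADPH supply had 7 higher, 1 lower and 8 not called of 16, or 43.8% higher and 6.25% lower beside 28.2% and 28.5% of all genes tested, and its median of 0.12 became -0.09 with library totals, 0.21 within number 21, 0.30 within number 22 and 0.19 with 1 library left out. Transketolase (Tkt), singled out in the study, measured 363, 305, 275 and 306 FPM at pH 7.4 and 1392, 1109.7, 1188 and 1068 FPM at pH 6.0, without overlap. The NADPH-making enzymes Me1 and Idh1 rose as well (1.75 and 1.37), and mitochondrial Me2 fell (-1.63).

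Citrate cycle and fatty acid oxidation had 14 higher, 6 lower and 16 not called of 36, or 38.9% higher and 16.7% lower beside 28.2% and 28.5% of all genes tested, and the median of 0.15 became -0.07 with library totals, 0.05 within number 21, 0.08 without N8 and 0.07 with N4 and N7. Pyruvate carboxylase (Pc), which refills the cycle and starts gluconeogenesis, had 13.4, 12.6, 13.3 and 13.6 FPM at pH 7.4 and 43.6, 66.1, 54.9 and 42.9 FPM at pH 6.0, a log2 change of 1.95 ± 0.14 (SE, adjusted p = 8.6e-07). Cpt1a, which admits fatty acids to mitochondria, fell (-1.43). The nuclear genes of the respiratory chain had 36 higher, 1 lower and 35 not called of 72, and their median of 0.52 became 0.31 with library totals, 0.29 within number 21 and 0.29 with N4 and N7 as the remaining acid libraries. Cytochrome c (Cycs) stood at 85.1, 67.9, 68.3 and 79.3 FPM at pH 7.4 and 251, 212, 257 and 316 FPM at pH 6.0, a log2 change of 1.77 ± 0.14 (SE, adjusted p = 1.2e-06), and here N8 was the highest library. All 13 protein-coding genes of the mitochondrial genome are listed at 0 in all 16 libraries, so that part of the chain was not measured.

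Cholesterol synthesis and uptake moved largely together, 18 higher, 1 lower and 4 not called of 23, median 1.22. The sterol demethylation enzyme Msmo1 and the feedback regulator Insig1 rose (2.70 and 2.29), and mevalonate kinase (Mvk) was the list's only fall (-0.69). Mvk was not called without N1 (-0.60), N2, N3 or N7. Fatty acid and triglyceride synthesis had 13 higher, 4 lower and 9 not called of 26 (median 0.39, but 0.19 with library totals). Hormone-sensitive lipase (Lipe), which releases fatty acids from stored fat, held 14.8, 14.8, 12.9 and 13.04 FPM at pH 7.4 and 2.02, 2.38, 2.50 and 1.88 FPM at pH 6.0, a log2 change of -2.67 ± 0.16 (SE, adjusted p = 3.0e-07). Lipe was low in all acid libraries alike, the monoglyceride lipase Mgll also fell (-0.96), and Lpin1 and Acss2 rose (1.43 and 1.42). Fitm2, the paralog of Fitm1, fell (-1.10).

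Cytosolic ribosomal proteins had 46 higher, 0 lower and 26 not called of 72 (median 0.74). Their share of all counts was 6.37, 5.46, 4.55 and 5.92% at pH 7.4 and 8.58, 6.28, 6.73 and 9.05% at pH 6.0. N3 and N8 held the highest shares, N4 lay below N1, and the groups were not told apart (exact two-sided permutation p = 0.0571). With N4 and N7 as the remaining acid libraries the median was 0.41. Rpl13a, a protein of the large subunit, stood at 78.5, 65.1, 48.3 and 69.2 FPM at pH 7.4 and 332, 211, 236 and 272 FPM at pH 6.0, a log2 change of 2.0 ± 0.18 (SE, adjusted p = 3.2e-06). Ribosomal protein genes have many near-identical pseudogene copies, so their counts are uncertain. Small nucleolar RNAs, often encoded in introns of such genes, had 67 higher and 7 lower of 146 (median 1.18). Processed pseudogenes had 40 higher and 6 lower of 151, or 26.5% and 3.97% beside 28.2% and 28.5% of all genes tested. Most small nucleolar RNAs have no poly(A) tail, and the part of RNA preparation in their counts was not tested.

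Ribosome biogenesis had 17 higher, 7 lower and 15 not called of 39 (median 0.23, but 0.03 with library totals). The RNA acetyltransferase Nat10 measured 46.1, 46.4, 44.6 and 40.5 FPM at pH 7.4 and 7.77, 8.68, 10.3 and 12.7 FPM at pH 6.0, a log2 change of -2.19 ± 0.16 (SE, adjusted p = 8.8e-07), with N8 the highest acid library. The polymerase I subunit Polr1a and its factor Ubtf fell (-1.32 and -1.39), and Rrn3 and Taf1a, of the same machinery, rose (1.72 and 1.71). Proteasome subunits had 30 higher, 1 lower and 5 not called of 36 and a median of 0.83. The immunoproteasome subunit Psmb8 held 7.59, 8.40, 8.21 and 7.71 FPM at pH 7.4 and 61.0, 39.3, 50.9 and 36.3 FPM at pH 6.0, a log2 change of 2.53 ± 0.17 (SE, adjusted p = 6.3e-07). Both Psmb8 and its partner Psmb9 rose (2.53 and 1.75), Psmd8 rose by 1.92, and the ATPase Psmc3 was the list's only fall (-0.59).

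Genes of the dividing cell were mostly lower. DNA replication and S phase had 4 higher, 27 lower and 8 not called of 39, median -0.99. Thymidine kinase 1 (Tk1), a marker of S phase, measured 46.6, 40.9, 34.5 and 37.2 FPM at pH 7.4 and 5.199, 9.08, 5.00 and 12.3 FPM at pH 6.0, a log2 change of -2.35 ± 0.27 (SE, adjusted p = 2.3e-05). The single-strand binding subunit Rpa2, Tyms and the licensing factor Cdt1 were exceptions that rose (0.93, 0.81 and 0.71). Cdt1 was not called without N2 (0.71), N5 or N6, nor with library totals (0.49). Mitosis had 4 higher, 23 lower and 10 not called of 37, median -0.73. Mki67, the Ki-67 antigen of cycling cells, stood at 84.2, 94.4, 85.1 and 86.9 FPM at pH 7.4 and 6.06, 18.1, 12.1 and 16.03 FPM at pH 6.0, a log2 change of -2.76 ± 0.26 (SE, adjusted p = 5.0e-06). Within the acid group N3 was the lowest and N4 the highest for Mki67, all under the control libraries. Foxm1, which drives mitotic genes, and the centromere protein Cenpf fell (-2.68 and -2.48), and Hmmr and Cdc20 rose (1.43 and 0.91).

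The E2F motif was searched as TTTCGCGC or TTTGGCGC on either strand. It was held by 14 of 32 windows of the S phase list (43.8%), against 0.792% of all windows, which include those of genes not tested here. Of the whole list, 27 of 39 tested genes fell and 4 rose. Among the holders of the motif, Cdt1 and Tyms rose and Rfc3 was not called (-0.03). Those that fell were Dnmt1, Gins1, Lig1, Mcm2, Mcm3, Mcm5, Mcm6, Mcm7, Pola1, Pole and Uhrf1. Mcm7 and Mcm3, subunits of the replicative helicase, fell most of these (-1.80 and -1.67), so their windows are shown, from RefSeq GRCr8 at chr12:22163129-22163428, minus strand, and at chr9:30733697-30733996, minus strand, with the motif in capitals:
Mcm7: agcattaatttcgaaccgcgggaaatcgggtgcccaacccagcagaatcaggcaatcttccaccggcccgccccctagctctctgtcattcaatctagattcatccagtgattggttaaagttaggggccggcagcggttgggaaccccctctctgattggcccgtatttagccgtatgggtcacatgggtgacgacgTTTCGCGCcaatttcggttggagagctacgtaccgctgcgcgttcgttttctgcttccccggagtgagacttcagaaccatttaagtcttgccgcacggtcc
Mcm3: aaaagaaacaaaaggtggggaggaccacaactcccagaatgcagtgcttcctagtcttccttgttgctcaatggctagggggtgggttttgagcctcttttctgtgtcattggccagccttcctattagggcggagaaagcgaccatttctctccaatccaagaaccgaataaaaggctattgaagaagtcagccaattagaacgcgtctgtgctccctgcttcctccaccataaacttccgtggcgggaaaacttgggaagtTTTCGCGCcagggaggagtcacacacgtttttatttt

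The p53 targets and cell cycle inhibitors had a list median of 2.05, with 20 higher, 1 lower and 3 not called of 24 and 14 rises past the 2-fold test. Besides Cdkn1a, Phlda3, a p53 target that dampens Akt signalling, stood at 44.5, 34.5, 32.7 and 38.8 FPM at pH 7.4 and 470.0, 435, 510.1 and 370.5 FPM at pH 6.0, a log2 change of 3.55 ± 0.13 (SE, adjusted p = 2.9e-08). Gadd45a, a growth arrest gene, rose by 4.13, and the kinase inhibitor Cdkn2c was the only fall (-1.42). This median was 2.34 without N8 and 1.57 within number 22. In the Bcl2 family and death receptors there were 12 higher, 3 lower and 6 not called of 21 (median 0.79). The death receptor Fas and the death-promoting Pmaip1 rose (2.68 and 2.31), as did the protective Bcl2l1 (1.63). Bmf, which promotes death on loss of attachment, held 30.6, 36.4, 33.6 and 31.8 FPM at pH 7.4 and 4.46, 3.91, 4.34 and 5.78 FPM at pH 6.0, a log2 change of -2.86 ± 0.16 (SE, adjusted p = 2.1e-07), and thus fell in all acid libraries.

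**Figure D2:**
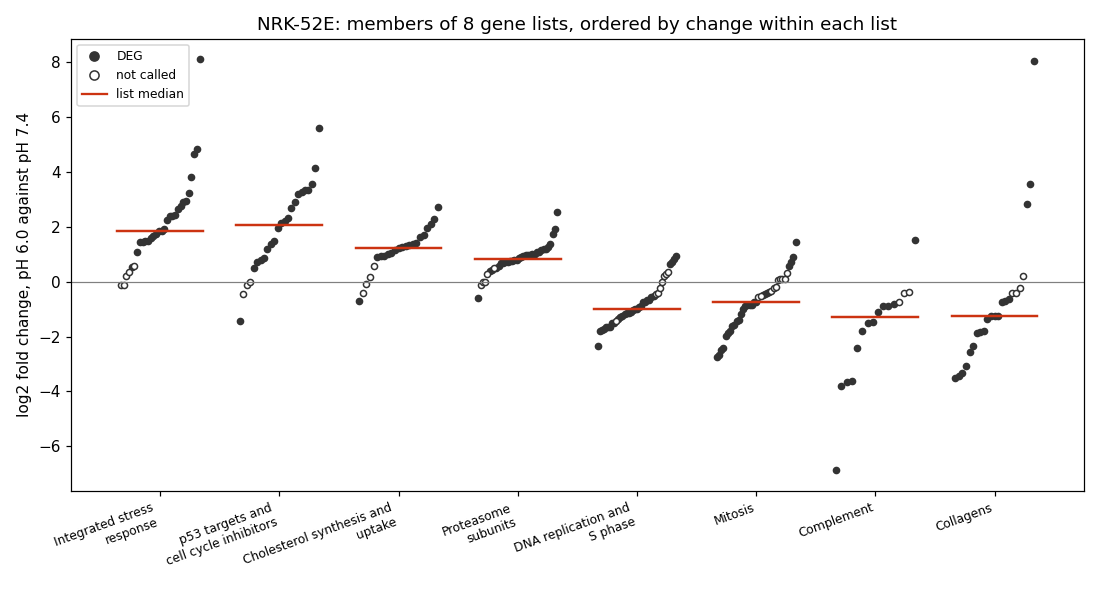
Log2 fold change (pH 6.0 against pH 7.4) of each tested member of 8 gene lists, ordered within each list, with filled points for DEGs, open points for genes not called and a red line at the list median. Medians reach from 2.05 for p53 targets to -1.28 for complement, and single collagens, such as Col2a1 at 8.03, lie far from their list's median.

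Chemokines and cytokines had 6 higher, 9 lower and 2 not called of 17, median -0.73. Cxcl10, which attracts T cells, stood at 0.375, 0.287, 0.332 and 0.524 FPM at pH 7.4 and 4.89, 3.78, 2.34 and 1.97 FPM at pH 6.0, a log2 change of 3.06 ± 0.37 (SE, adjusted p = 3.4e-05). It was low throughout yet higher in each acid library, Ccl7 also rose (3.18), and Csf3 and Cx3cl1 fell with Il33 (-5.62 and -4.85). NF-kB regulators and adhesion molecules had 9 higher, 6 lower and 7 not called of 22, or 40.9% higher and 27.3% lower beside 28.2% and 28.5% of all genes tested, and the median of 0.12 became -0.09 with library totals, 0.05 within number 22, 0.20 without N8 and 0.02 with 1 library left out. The NF-kB inhibitor Tnfaip3 (A20) measured 11.3, 13.8, 15.7 and 19.1 FPM at pH 7.4 and 5.50, 6.56, 4.67 and 1.74 FPM at pH 6.0, a log2 change of -1.72 ± 0.33 (SE, adjusted p = 8.0e-04), with N8 lowest. The receptor Tlr4 fell and the inhibitor Nfkbib rose (-1.75 and 1.16). Interferon-stimulated genes had 12 higher, 10 lower and 8 not called of 30, or 40% higher and 33.3% lower beside 28.2% and 28.5% of all genes tested, and the median of -0.06 became -0.27 with library totals, 0.05 within number 22, -0.15 without N8 and -0.03 with 1 library left out. Bst2, which tethers budding viruses, held 23.9, 19.3, 19.3 and 23.1 FPM at pH 7.4 and 112, 83.9, 106 and 109 FPM at pH 6.0, a log2 change of 2.24 ± 0.13 (SE, adjusted p = 2.3e-07). Irf7 rose while Irf9 and Mx2 fell (1.58, -1.42 and -1.69).

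Antigen presentation by MHC class I had 12 higher, 4 lower and 2 not called of 18 and a median of 0.76. Tap1, a subunit of the peptide pump, stood at 23.0, 20.03, 18.7 and 19.6 FPM at pH 7.4 and 273, 229, 230.3 and 145 FPM at pH 6.0, a log2 change of 3.41 ± 0.18 (SE, adjusted p = 1.4e-07), with N8 the lowest acid library at 6.32-fold over the highest control library. The class I-like gene Cd1d1 fell (-2.08). Complement moved the opposite way, 1 higher, 12 lower and 3 not called of 16, median -1.28. The protease C1s, which starts the classical cascade, measured 51.5, 51.8, 65.3 and 67.8 FPM at pH 7.4 and 4.10, 4.18, 4.75 and 5.74 FPM at pH 6.0, a log2 change of -3.67 ± 0.17 (SE, adjusted p = 7.0e-08). Masp1 of the lectin pathway had the largest fall of the list (-6.86), C4b fell (-3.79) and properdin (Cfp) rose (1.51). Prostaglandin synthesis and receptors had 3 higher, 3 lower and 2 not called of 8, or 37.5% higher and 37.5% lower beside 28.2% and 28.5% of all genes tested, with a median of -0.55. The phospholipase Pla2g4a, which frees arachidonic acid, held 15.3, 17.04, 19.3 and 19.5 FPM at pH 7.4 and 2.20, 3.01, 2.62 and 4.80 FPM at pH 6.0, a log2 change of -2.51 ± 0.24 (SE, adjusted p = 5.5e-06). Ptgs1 fell too (-1.29), and the exporter Abcc4 and the synthase Ptges3 rose (2.03 and 1.19).

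Matrix genes were mostly lower. Collagens had 3 higher, 16 lower and 4 not called of 23, 9 of the falls past the 2-fold test, median -1.24. Col12a1, a collagen on the surface of fibrils, stood at 149.5, 203, 141 and 129 FPM at pH 7.4 and 16.2, 18.3, 9.92 and 11.4 FPM at pH 6.0, a log2 change of -3.50 ± 0.22 (SE, adjusted p = 3.6e-07). The basement membrane chain Col4a4 fell (-3.45), Col4a1 and Col4a2 were not called (-0.22 and -0.41), and Col17a1 of hemidesmosomes rose with Col2a1 and Col23a1 (3.55 and 2.82 for the first and last). Matrix glycoproteins and crosslinking had 3 higher, 18 lower and 6 not called of 27, median -1.21. Hapln1, which links hyaluronan to proteoglycans, measured 1.87, 2.34, 3.36 and 2.90 FPM at pH 7.4 and 0, 0, 0 and 0.141 FPM at pH 6.0. Only N8 held any fragment of it at pH 6.0, so its fitted change depends on the prior count. Loxl1 and Fbln5, both of elastic fibers, fell (-3.48 and -3.42), and the collagen hydroxylase P4ha1 rose (1.56). Matrix proteases and inhibitors had 3 higher, 12 lower and 3 not called of 18, median -1.40. The protease inhibitor Serpine2 stood at 52.7, 52.8, 54.5 and 62.3 FPM at pH 7.4 and 6.42, 4.94, 5.53 and 4.42 FPM at pH 6.0, a log2 change of -3.41 ± 0.14 (SE, adjusted p = 5.1e-08). Mmp16 fell, and Mmp15 and Mmp2 rose (-3.81, 2.21 and 1.01).

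Attachment to the matrix was covered by integrins and laminins, 4 higher, 12 lower and 4 not called of 20, median -0.83. Integrin beta 8 (Itgb8), which takes part in activating TGF-beta, held 12.8, 29.0, 44.7 and 34.2 FPM at pH 7.4 and 2.69, 5.30, 6.27 and 2.96 FPM at pH 6.0, a log2 change of -2.83 ± 0.39 (SE, adjusted p = 7.8e-05). The control libraries differed widely here, from 12.8 FPM in N1 to 44.7 FPM in N5, and still did not meet the acid libraries. Itga5 rose (0.93). Tight junctions and claudins had 6 higher, 7 lower and 3 not called of 16, or 37.5% higher and 43.8% lower beside 28.2% and 28.5% of all genes tested, and the median of 0.23 became 0.02 with library totals and 0.01 within number 21. Claudin 6 (Cldn6) measured 0.375, 0.492, 0.497 and 0.286 FPM at pH 7.4 and 3.18, 2.11, 1.97 and 1.74 FPM at pH 6.0, a log2 change of 2.39 ± 0.31 (SE, adjusted p = 5.7e-05). Besides Ocln, claudins 19 and 15 fell (Cldn19 -3.11, Cldn15 -2.61), and the scaffolds Tjp3 and Tjp1 rose (1.32 and 0.62).

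TGF-beta signalling had 6 higher, 14 lower and 14 not called of 34 (median -0.44). The activin subunit Inhba held 0.515, 1.11, 1.33 and 1.24 FPM at pH 7.4 and 0.122, 0.045, 0 and 0.282 FPM at pH 6.0, a log2 change of -3.24 ± 0.64 (SE, adjusted p = 0.00102). N7 held no fragment of Inhba and no acid library reached 0.3 FPM, and the sister subunit Inhbb fell as well (-3.47). The pathway's Smad1 and Smad3 rose (0.88 and 0.74). Contractile and EMT genes had 2 higher, 9 lower and 11 not called of 22, or 9.09% higher and 40.9% lower beside 28.2% and 28.5% of all genes tested. The median of -0.25 became -0.46 with library totals, -0.14 within number 22, -0.39 with N4 and N7 and -0.10 with 1 library left out. Vimentin (Vim) and Cald1 were lower (-1.06 and -1.29) and Snai1 and Des higher (1.10 for Snai1). The YAP pathway and targets had 4 higher, 6 lower and 18 not called of 28, or 14.3% higher and 21.4% lower beside 28.2% and 28.5% of all genes tested, so both shares were under those of all genes, and the median of 0.18 became -0.02 with library totals and 0.07 within number 22. Nt5e, the ectoenzyme CD73, measured 2.44, 3.32, 3.44 and 2.90 FPM at pH 7.4 and 0.612, 1.12, 0.41 and 0.705 FPM at pH 6.0, a log2 change of -2.10 ± 0.31 (SE, adjusted p = 1.2e-04), and the YAP target Ccn2 fell (-1.57). AP-1, early growth response and MAP kinase feedback had 10 higher, 6 lower and 17 not called of 33, beside 28.2% and 28.5% of all genes tested, and the median of 0.10 became -0.09 with library totals, 0.24 within number 21, 0.23 without N8 and 0.06 with 1 library left out. Junb fell, and Dusp8 and Ier5 rose (-1.27, 1.94 and 1.73).

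The EGF, PDGF, FGF and VEGF family signals had 7 higher, 21 lower and 10 not called of 38 (median -0.68). Fgf2, a growth factor without a secretion signal, stood at 0.422, 0.041, 0.166 and 0.19 FPM at pH 7.4 and 1.10, 1.17, 0.861 and 1.27 FPM at pH 6.0, a log2 change of 2.41 ± 0.46 (SE, adjusted p = 8.3e-04). It was scarce in all libraries and separate between the groups, and Fgf1 and Fgf18 fell (-3.50 and -3.26). Wnt signalling had 6 higher, 17 lower and 8 not called of 31 (median -0.58). The receptor Fzd1 held 71.4, 77.0, 78.5 and 74.5 FPM at pH 7.4 and 3.85, 6.16, 7.17 and 12.7 FPM at pH 6.0, a log2 change of -3.34 ± 0.29 (SE, adjusted p = 2.8e-06). N8 kept the highest level of the acid libraries, Tcf7 and Wnt11 fell (-2.53 and -2.39), and the Wnt inhibitor Wif1 rose (1.88). Hypoxia-inducible factors and targets had 10 higher, 6 lower and 9 not called of 25, or 40% higher and 24% lower beside 28.2% and 28.5% of all genes tested, and the median of 0.25 became 0.03 with library totals. Vegfa, the main vessel growth factor, measured 51.0, 48.2, 51.2 and 49.3 FPM at pH 7.4 and 277, 198, 171 and 134 FPM at pH 6.0, a log2 change of 1.95 ± 0.19 (SE, adjusted p = 5.8e-06), while Edn1 and the oxygen sensor Egln2 fell (-1.13 and -1.08). The hypoxia response element, HRE, searched as ACGTG on either strand, stood in 14 of 21 windows of this list (66.7%) and in 19.3% of all windows, and also in 11 of 32 windows of the S phase list (34.4%).

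Tubule transport and endocytosis had 2 higher, 8 lower and 8 not called of 18 tested genes (median -0.68). Aminopeptidase N (Anpep), an enzyme of the brush border, stood at 28.7, 30.0, 27.9 and 27.5 FPM at pH 7.4 and 1.65, 1.21, 0.861 and 1.27 FPM at pH 6.0, a log2 change of -4.55 ± 0.19 (SE, adjusted p = 5.3e-08). All acid libraries were near 1 FPM, the water channel Aqp3 and the angiotensin-converting enzyme Ace fell (-2.84 and -2.15), and the phosphate carrier Slc20a1 rose (1.55). Kidney injury markers had 4 higher, 4 lower and 7 not called of 15, near the 28.2% higher and 28.5% lower of all genes tested, with a median of 0.03 that was -0.19 with library totals, -0.08 and -0.05 within numbers 21 and 22 and -0.15 with N4 and N7, and reached -0.16 with 1 library left out. Lcn2, released by injured tubules, held 9.23, 7.29, 8.75 and 6.95 FPM at pH 7.4 and 2.39, 2.517, 1.93 and 2.77 FPM at pH 6.0, a log2 change of -1.76 ± 0.19 (SE, adjusted p = 1.4e-05). It was lower in every acid library, in contrast to Gdf15, Atf3 and Cxcl1 (2.12), which rose, and Hmox1, Clu and Spp1 were not called (0.03, -0.36 and -0.75).

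Circadian clock genes had 11 higher, 3 lower and 5 not called of 19 (median 0.45, but 0.23 with library totals and 0.26 within number 22). Ciart, a repressor of the clock, measured 2.01, 1.35, 1.45 and 1.24 FPM at pH 7.4 and 45.0, 25.8, 21.2 and 20.5 FPM at pH 6.0, a log2 change of 4.19 ± 0.30 (SE, adjusted p = 8.4e-07). N3 stood above the other acid libraries for Ciart. The repressors Cry1 and Nfil3 rose (2.30 and 2.18), and the activators Hlf and Tef fell (-2.28 and -0.64).

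**Figure D3:**
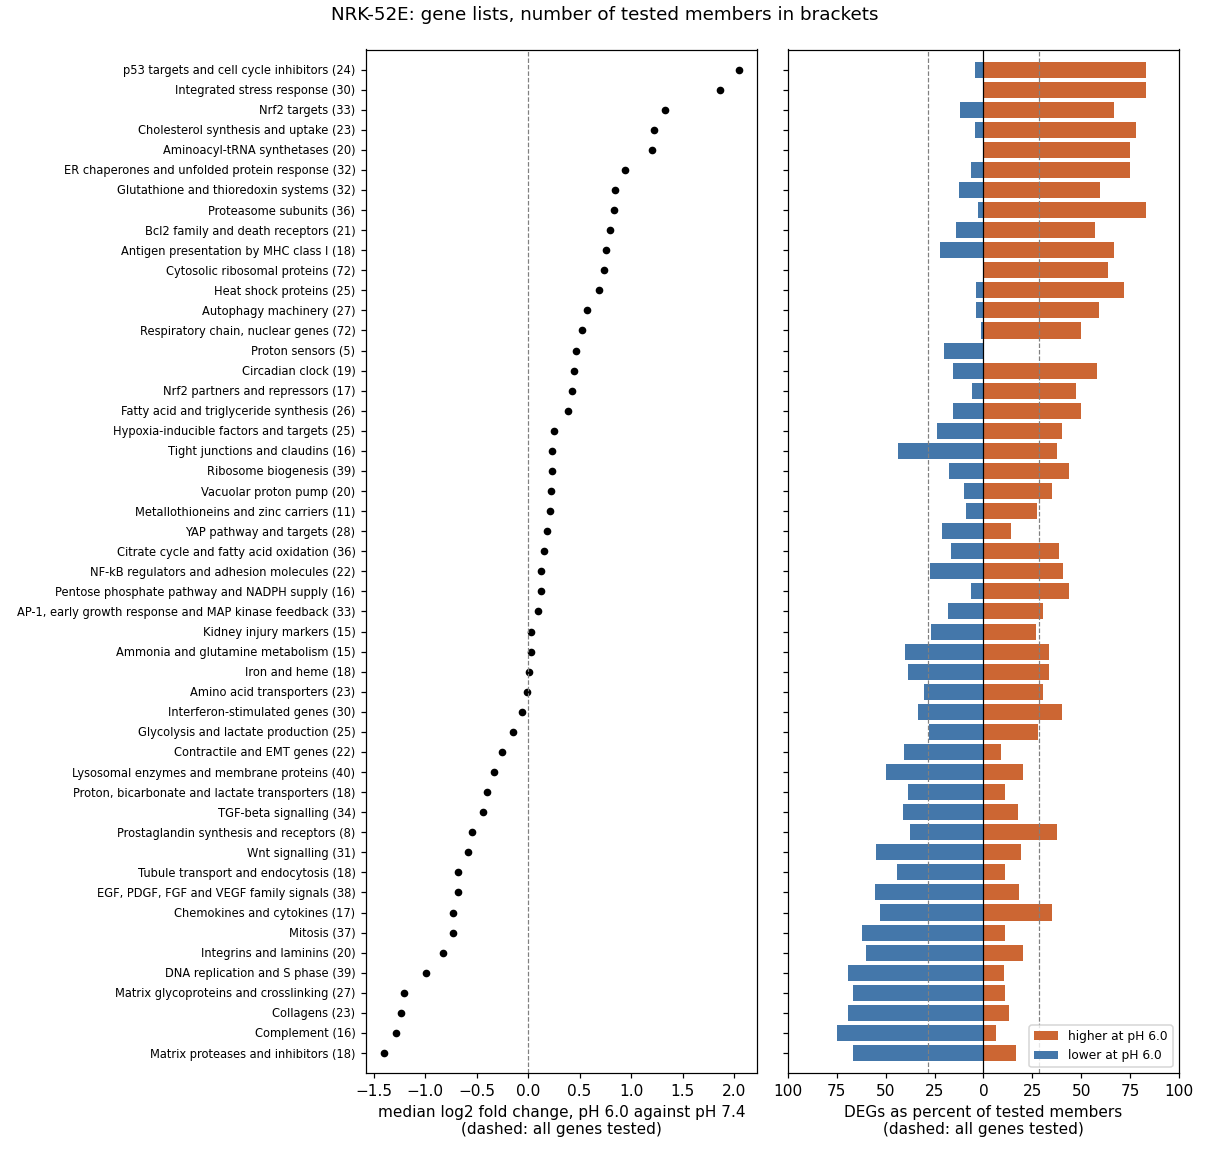
Left, median log2 fold change (pH 6.0 against pH 7.4) of each gene list with a tested member, with the number of tested members in brackets. Right, the percentage of tested members that were higher (orange) or lower (blue) DEGs, with dashed lines for all genes tested, and with library totals the medians of ammonia, iron, pentose phosphate, citrate cycle, NF-kB, YAP, AP-1 and injury genes, all within 0.18 of 0, change sign.

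The most abundant transcripts shifted in rank. Eef1a1, an elongation factor of protein synthesis, led at both pH values with 0.806% and 0.959% of counts. At pH 7.4 the next were the matrix genes Col3a1 (0.737%), Sparc (0.545%) and Ltbp4 (0.456%), and Ltbp4 fell (-1.90). At pH 6.0 the chaperone Hspa5 (0.396%) and the collagen chaperone Serpinh1 (0.32%) were among the first 10, and Serpinh1 rose (1.24). Bsg and Msln, near the top at both, were not called (-0.04 and 0.05). The 10 highest genes together took 4.68% ± 0.0363 (SD, n = 4) at pH 7.4 and 4.23% ± 0.273 (SD, n = 4) at pH 6.0 (exact two-sided permutation p = 0.0571).

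By position, medians of the autosomes and of chromosome X lay between -0.21 on chromosome 18, with 78 DEGs higher and 118 lower of 345, and 0.13 on chromosome 20, which holds Cdkn1a, Psmb8 and Tap1. By class, protein-coding genes had 3633 higher and 3760 lower of 12736. Long intergenic RNAs had 55 higher (19.6%) and 75 lower (26.7%) of 281, both under the 28.2% and 28.5% of all genes tested, with a median of -0.25. MicroRNA genes, also under these shares, had 14 higher and 8 lower of 82, and their counts again are fragments over the gene.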

How the data were processed

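RNA of the 8 NRK-52E and 8 NRK-49F libraries was poly(A)-enriched and read as pairs. The authors deposited raw counts of fragments over exons for 32623 Ensembl genes of the rat genome rn6, made with featureCounts, fragments that map to several places included, without normalization. The study's methods name tophat2 as the aligner and the submitters' processing notes HISAT2 2.1.0, and neither names whether strand was used, so the counts of genes that overlap on opposite strands are uncertain. Groups came from the sample labels, and no library was left out.

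From these counts the 8 NRK-52E libraries were fitted in R 4.3.3 with edgeR 4.0.16 (quasi-likelihood test, TMM, filterByExpr) and DESeq2 1.42.0 (Wald test), with Benjamini-Hochberg adjustment over all genes tested. Log2 changes and adjusted p-values are those of edgeR, pH 6.0 against pH 7.4, and the SE is the absolute log2 change over the square root of F. The test against a 2-fold change was glmTreat at an FDR below 0.01. FPM values used TMM factors of all 16 libraries, and the interaction was fitted in those. The steps were checked on simulated data in which few genes changed, equally up and down, so scaling under a broad response was not checked. There the test of pH recovered 86 of 100 true changes of log2 1, and the interaction test 45 of 100. Both recovered 100 of 100 at log2 2. A difference between the lines that was not called can therefore still exist. Lists were described by counts and medians, without a set test.

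The cell line was proposed, and the members and lists were chosen, with earlier results of these data known. Genes were named by rule: 15 DEGs from each end of the range of changes that had separate groups, a gene symbol and a mean of 10 FPM or more at either pH, up to 3 DEGs in each direction from every list (1 FPM or more), genes the study names and cell type markers. Genes named as on or off, as most abundant, as holders of a motif or as not called, members named beyond the rule, the printed windows and the genes given per library were chosen after values were seen. Some genes that meet the rule are not reported here. Col6a3, Col1a2, Lbr, Cth, Pgd and Srxn1 were not analysed here.

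Alternatives were DESeq2's size factors, library totals, no filter, a filter of 1 CPM in 4 or more libraries, a fit of all 16 libraries, each tool alone, an FDR of 0.05, the likelihood-ratio test, the second number as a covariate and within each number, protein-coding genes and each library left out, and, chosen after seeing the data, N4 and N7 alone at pH 6.0.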

Additional observations from a re-analysis of the deposited data

Results flagged for a closer look

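In 9 of 158 groups of 4 libraries, a single library lay far from the other 3 for a gene or measure of the text. Chance gives about 1 in 20, here 7.9, and 4 of the 9 were N8. N8 was high among the acid libraries for Ackr4 (2.73 FPM against 1.04 to 1.26 FPM in the others), Slc7a8 (0.799 FPM against 0.041 to 0.122 FPM) and Hapln1 (0.141 FPM against 0 FPM in each), and low for Steap3 (31.1 FPM against 49.7 to 53.1 FPM). Among the control libraries N5 was high for Slc7a8 (5.64 FPM against 5.04 to 5.14 FPM) and for Fitm1 (0.0415 FPM, a single fragment, against 0 FPM), N2 low for Mt1 (1.97 FPM against 3.98 to 4.14 FPM) and N1 high for Des (1.78 FPM against 0.655 to 0.8291 FPM). The summed distal nephron markers of N2 were 1.3 FPM against 1.8 to 1.9 FPM.

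By the interaction test over 16 libraries, a difference of the pH effect between the cell lines was called for 5 of the 12 genes compared, beside 37.0% of all genes tested. The 12 were chosen by the size of their change in NRK-52E, which favors a difference, so the count is no result about them. The log2 change in NRK-52E minus that in NRK-49F was 7.09 for Fitm1, 5.17 for Cdkn1a, 5.04 for Ifi27l2b, 3.02 for Hapln3 and -5.39 for Il33.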

How the results depend on the processing

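No called change of a named gene turned its direction under any alternative run, while changes near 0 that were not called, such as those of Msln and Keap1, did with library totals. List medians near 0 changed sign with library totals and other alternatives, as stated beside them. The share of DEGs that were higher at pH 6.0, 49.7%, was 37.6% with library totals, 47.7% without a filter, 48.1% with the second number as a covariate and 47.4% within number 21, where 2488 DEGs were higher. More DEGs were higher than lower without N7 (50.7%), with the 1 CPM filter (50.1%) and within number 22 (50.8%). Within number 22, 2820 genes were DEGs, 1433 higher and 1387 lower, with 231 rises and 279 falls past the 2-fold test. Both fits have 2 libraries per pH. With each library left out in turn, DEGs numbered 6789 to 8914, rises 741 to 1107 and falls 1182 to 1788, and the share lay between 48% and 50.7%. The highest of each count was reached without N8. The 2-fold test was made in edgeR, so its counts are already those of edgeR alone, and none was made in DESeq2. Of the 302 named genes tested, 293 were DEGs, 20 of which lost the call without at least 1 library and 1, Mt1, without N8. With library totals 13 lost it, within number 21 47 and within number 22 104. The cause of these shifts was not tested. No paired analysis was possible because the titles number every library differently, and the second number, which both pH groups share, was fitted as a covariate.

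Library totals of 16844811 to 23856187 limit what can be seen of genes under 1 FPM, where a count of 3 per library was the floor of fold bounds. Such bounds and levels cover counting error only, since fragments amplified from the same molecule were not told apart. TMM assumes that most genes do not change, whereas 56.7% of those tested were DEGs. The shift of -0.21 with library totals shows that the middle of the data depends on that choice. Both scalings are relative, so this shift does not bound the error of either. Genes with near-identical copies share fragments. RNA per cell, cell number, protein and cells without fibroblasts were not analysed here.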
